A study of Sus scrofa with 6 samples.

Results

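The interleukin-17 and interleukin-23 axis was described here through 7 genes, matched by their exact symbols among the 32285 genes of the deposited tables. They were Il17a (ENSMUSG00000025929) and Il17f (ENSMUSG00000041872), which encode the ligands, and Il17ra (ENSMUSG00000002897) and Il17rc (ENSMUSG00000030281), which encode the receptor chains they share. The others were Il23a (ENSMUSG00000025383) and Il12b (ENSMUSG00000004296), the p19 and p40 subunits of interleukin-23, and Il23r (ENSMUSG00000049093), its specific receptor chain. Each symbol stood on 1 row.

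Interleukin-23 is a dimer of p19 and p40, made mostly by myeloid cells, and it sustains lymphocytes that secrete interleukin-17A and interleukin-17F. In mouse skin these lymphocytes include gamma-delta T cells that need no priming in lymph nodes as well as CD4 helper T cells. Interleukin-17 acts through a receptor of IL-17RA and IL-17RC on epithelial and stromal cells, which answer with neutrophil-attracting chemokines, growth factors for myeloid cells and antimicrobial proteins. The p40 subunit is also part of interleukin-12, and IL-17RA also serves other receptors of the family.

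The series holds 6 single-cell RNA libraries of unsorted skin cells, 1 for each label, and the labels name the red duroc pig. A 1 mg transdermal patch of deferoxamine (DFO), an iron chelator, was given on 4 schedules. The pretreatment label places it 2 weeks ahead of radiotherapy. The continuous label covers 18 weeks in total. The chronic label names 4 weeks after recovery and the acute label 12 weeks of recovery after radiation. The other libraries are labelled irradiated skin and normal skin. The labels do not give ages, the number of animals or the radiation dose.

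All 32285 gene identifiers in every library are mouse Ensembl identifiers, against the pig named by the labels. The chronic, acute, irradiated and normal libraries also carry 4 hashtag antibodies each, whose tags no source ties to animals, so they were not used. The series title names an anti-JUN therapeutic and post-operative adhesions. The libraries are named below by their labels alone, and no value is put down to radiation or to DFO.

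With 1 library per label there was no replicate and no test. Values are unique molecular identifiers (UMIs) of a gene in a cell type of a library, per 1000000 gene UMIs there (CPM). Intervals in brackets are exact 95% intervals for counting error only. They are too narrow where a few cells hold many of a gene's UMIs, as for Il17a and Il17f, and such cells are named only for genes of the axis. Levels of different genes were not compared per length, so genes are set side by side only by which cells hold them.

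After filters, 1477 cells were kept in pretreatment, 8213 in continuous, 8466 in chronic, 21719 in acute, 19911 in irradiated and 15938 in normal. The median barcode as deposited held 7040 UMIs in pretreatment and 1339 to 3023 in the other libraries, so pretreatment stands apart in both size and depth. Pairs of libraries shared between 3 and 153 cell barcodes, at most 0.773% of the smaller library. Cell types were gated by marker genes, and 14.2% to 25.5% of kept cells passed no gate. The gated T cells numbered 90 in pretreatment, 814 in continuous, 1279 in chronic, 583 in acute, 588 in irradiated and 589 in normal. Fibroblasts and keratinocytes were present in every library, at 338 to 1960 fibroblasts and 70 to 285 keratinocytes. T cells were 15.1% of kept cells in chronic, 9.91% in continuous, 6.09% in pretreatment and 2.68% to 3.70% in acute, irradiated and normal.

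**Figure D1:**
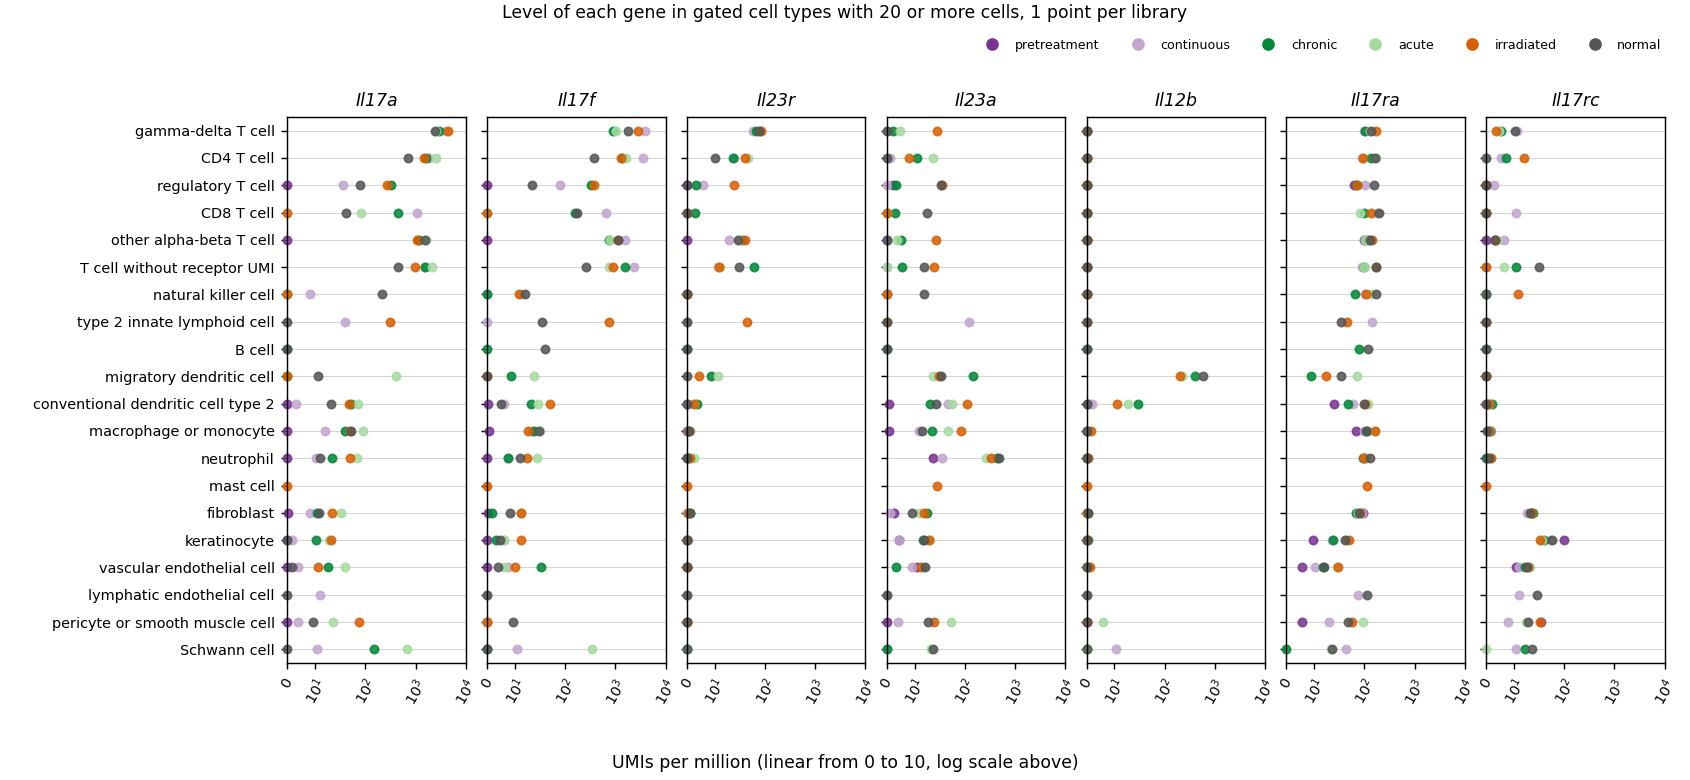
Level of the 7 genes in CPM (linear from 0 to 10, log scale above) in each gated cell type with 20 or more cells; each point is 1 library. The highest mean level across libraries is in gamma-delta T cells for Il17a, Il17f and Il23r, in neutrophils for Il23a, in migratory dendritic cells for Il12b and in keratinocytes for Il17rc, with ranges that overlap those of other types for all of these but Il12b, while Il17ra is spread over leukocytes and fibroblasts.

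The ligand genes Il17a and Il17f lay in T cells, and gamma-delta T cells had the highest mean level of both across libraries, with ranges that overlapped those of CD4 T cells. Il17a in gamma-delta T cells was 3991 CPM in continuous, 2869.6 in chronic, 2589.9 in acute, 4336 in irradiated and 2429 in normal. In pretreatment it was 685 over 15 gamma-delta T cells, and 1 cell held 62.8% of those 78 UMIs. The number of gamma-delta T cells was 195 in continuous, 363 in chronic, 159 in acute, 166 in irradiated and 189 in normal. Irradiated and continuous were thus the highest, and normal the lowest of the 5 libraries with more than 20 of these cells.

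A UMI of Il17a was seen in 71.3% of gamma-delta T cells in continuous, 65.8% in chronic, 71.1% in acute, 67.5% in irradiated and 53.4% in normal. With every cell thinned to 1000 UMIs these shares were 57.5% in continuous, 56.2% in chronic, 69.0% in acute, 62.1% in irradiated and 47.1% in normal. In both forms normal had the lowest share among the 5. In fibroblasts, which should lack Il17a, the unthinned share was 0.393% to 5.80%, at 0.313 to 32.0 CPM. Median depth was 3554 to 11343 UMIs per fibroblast and 1024 to 8486 per gamma-delta T cell.

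Between libraries, Il17a in gamma-delta T cells was 1.79 times as high in irradiated as in normal (1.64 to 1.95). Each patch library was compared with the same irradiated library. The ratio was 0.920 for continuous (0.862 to 0.983), 0.662 for chronic (0.619 to 0.708) and 0.597 for acute (0.539 to 0.661). All of these lie within 2-fold, but with 1 more marker required per gate acute over irradiated was past it, at a log2 ratio of -1.17. Of all genes tested in gamma-delta T cells, 4.10% were higher and 3.91% lower by 2-fold or more in irradiated over normal. For continuous over irradiated the shares were 9.44% higher and 11.3% lower, for chronic 5.42% and 7.20%, and for acute 3.23% and 3.65%. Thinning moved the log2 ratio for acute over irradiated to -0.20, against -0.74 with all UMIs.

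Il17f in gamma-delta T cells was 3858 CPM in continuous, 899 in chronic, 1045 in acute, 2879 in irradiated and 1771 in normal. Pretreatment had 1212, with 98.6% of its 138 UMIs in 1 cell. The ratio of irradiated over normal was 1.63 (1.47 to 1.80). Against irradiated, Il17f stood at 1.34 in continuous (1.24 to 1.45), 0.312 in chronic (0.284 to 0.344) and 0.363 in acute (0.312 to 0.421). Chronic and acute were therefore past 2-fold below irradiated, where 7.20% and 3.65% of all genes tested were as low. With cells thinned to 1000 UMIs, acute over irradiated was within 2-fold, at a log2 ratio of -0.79. One irradiated cell held 28.9% of that library's 826 Il17f UMIs in gamma-delta T cells.

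The share of gamma-delta T cells with an Il17f UMI did not follow the level. It was 66.7% in continuous, 31.1% in chronic, 33.3% in acute, 29.5% in irradiated and 40.2% in normal. In these unthinned shares continuous stood apart from the other libraries, whose 95% intervals overlapped in neighbouring order. The shares were then taken over cells with at least 1000 UMIs, each thinned to 1000. They were 47.7% in continuous, 21.6% in chronic, 41.7% in acute, 23.5% in irradiated and 36.5% in normal. Continuous was still the highest there, but lay nearer to acute.

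CD4 T cells without Foxp3, the gate that holds conventional helper cells, carried both genes as well. Il17a was 1820 CPM in continuous, 1630.4 in chronic, 2545 in acute, 1448 in irradiated and 699 in normal. Il17f was 3622 in continuous, 1334 in chronic, 1661 in acute, 1323 in irradiated and 375 in normal. In pretreatment neither gene had a UMI in 9 cells. The order of libraries thus differed between the genes, with acute highest for Il17a and continuous highest for Il17f.

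In these CD4 T cells the ratio of irradiated over normal was 2.07 for Il17a (1.56 to 2.77) and 3.53 for Il17f (2.46 to 5.18). The sums rest on 55 cells in irradiated and 44 in normal. One cell held 40.0% of the Il17a UMIs in irradiated, and 1 held 55.1% in normal. Continuous over irradiated gave 1.26 for Il17a (1.08 to 1.47) and 2.74 for Il17f (2.35 to 3.21), beside 12.4% of all genes tested higher and 12.6% lower by 2-fold or more. Chronic over irradiated gave 1.13 for Il17a (0.963 to 1.32) and 1.01 for Il17f (0.855 to 1.19). Acute over irradiated gave 1.76 for Il17a (1.46 to 2.12) and 1.26 for Il17f (1.02 to 1.54). All genes past 2-fold were 7.96% higher and 9.11% lower for chronic, and 3.44% and 5.20% for acute.

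**Figure D2:**
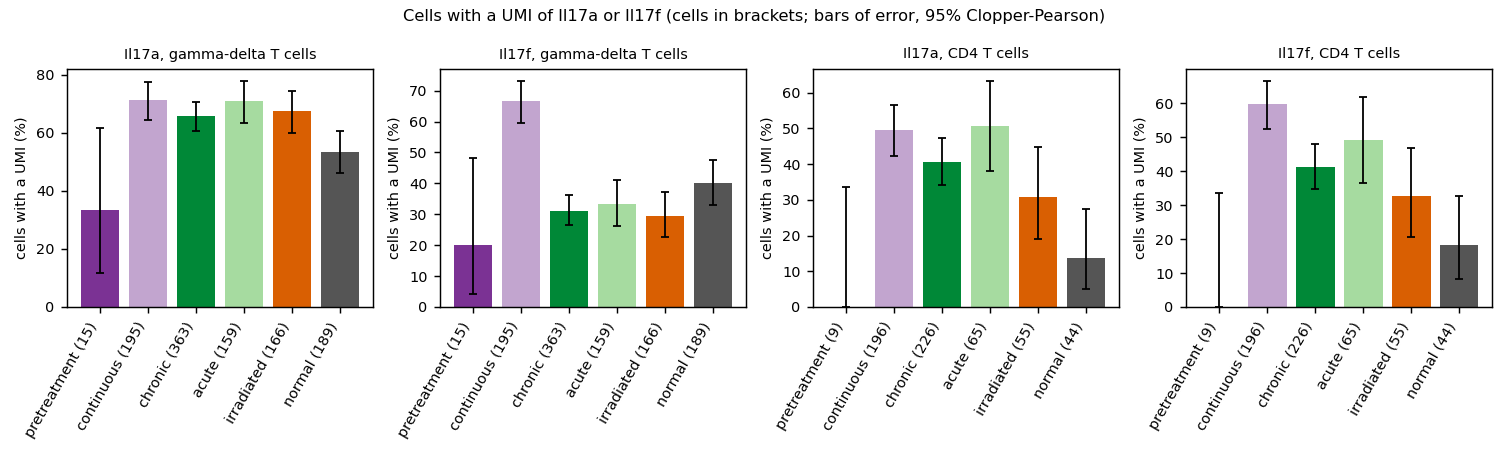
Share of cells (%) with at least 1 UMI of Il17a or Il17f among gamma-delta and CD4 T cells in each library, with the number of cells in brackets; error bars are 95% Clopper-Pearson intervals. Il17f was seen in 66.7% of gamma-delta T cells in continuous and in 20.0% to 40.2% in the other libraries.

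The number of Il17f UMIs for each Il17a UMI was 0.967 in continuous, 0.313 in chronic, 0.404 in acute, 0.664 in irradiated and 0.729 in normal for gamma-delta T cells. For CD4 T cells it was 1.99 in continuous, 0.818 in chronic, 0.653 in acute, 0.914 in irradiated and 0.536 in normal. Continuous was the highest of these 5 libraries in both cell types.

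Many cells held both ligand genes. Among all 3943 gated T cells, 1617 held Il17a, 1143 held Il17f and 863 held both, which is 53.4% of the Il17a cells and 75.5% of the Il17f cells. Among 1087 gamma-delta T cells the genes met in 333, or 47.0% of 709 Il17a cells and 78.5% of 424 Il17f cells. Among 595 CD4 T cells they met in 201, or 82.0% of 245 Il17a cells and 75.0% of 268 Il17f cells. These cells come from 6 libraries of unequal depth, so the shares are descriptions.

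Other T cells carried Il17a as well. The gate called T cells without a receptor UMI holds cells with no UMI of Trac, Trbc1 or Trbc2 that missed the gamma-delta gate. The gamma-delta gate needs a Trdc UMI or 2 gamma chain UMIs, so cells with fewer gamma chain UMIs could be among them. T cells without a receptor UMI had 1516 Il17a CPM in continuous, 1557 in chronic, 2083 in acute, 991 in irradiated and 446 in normal. The gate of other alpha-beta T cells holds cells without Foxp3 that had no UMI of Cd4, Cd8a or Cd8b1. It also holds those with Cd4 together with Cd8a or Cd8b1. Cells whose Cd4 UMI was missed could be among them. Other alpha-beta T cells had 1108 Il17a CPM in continuous, 1172 in chronic, 1596 in acute, 1051 in irradiated and 1532 in normal, so in normal they stood above CD4 T cells. CD8 T cells had 1069 in continuous, where 1 cell held 88.9% of the UMIs, 455 in chronic, where 1 cell held 76.5%, and 0 to 82.8 in acute, irradiated and normal. Regulatory T cells, which restrain other T cells, had 0 to 439.9. In natural killer cells Il17a was at most 8.05 outside normal, where 1 cell held all 27 UMIs. Of all Il17a UMIs in kept cells, T cells held 24.1% to 88.6%, and 7.43% to 74.6% lay in cells that passed no gate. In pretreatment 1 such cell held 235 of 315 Il17a UMIs.

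Il17a was also counted in cells not known to make it. Its level in neutrophils was 0 to 2.62% of that in gamma-delta T cells of the same library, and the 9 T cell markers summed there to 0.265% to 2.42% of their gamma-delta level. In macrophages or monocytes it was 0 to 3.53%, beside 0.232% to 2.84% for the markers. In fibroblasts the 9 markers stood at 8.02% to 12.1%, beside 0.0457% to 1.24% for Il17a. The 3 CD3 genes among those markers, a subset chosen after the values of all 9 were seen, stood at 0 to 1.18% in fibroblasts. Among 51 Schwann cells in acute Il17a was 683 CPM, with 95.2% of 63 UMIs in 1 cell, and among 59 in chronic it was 151, with all 18 UMIs in 1 cell. Among 49 migratory dendritic cells in acute it was 413, with 85.7% of 35 UMIs in 1 cell. What part free RNA or doublets had in these counts was not tested.

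In gamma-delta T cells thinned to 1000 UMIs, 535 had an Il17a UMI and 420 had none, pooled over 6 libraries of unequal size. Il17f was seen in 39.4% of cells with Il17a and 21.0% of cells without, and the share was higher with Il17a in each of the 5 libraries with more than 20 of these cells. Cd163l1, which encodes a scavenger receptor, was seen in 56.6% and 45.5%, and Maf, a transcription factor of type 17 cells, in 69.2% and 59.8%. By library the Cd163l1 shares lay close together in irradiated, at 50% with and 48.0% without, and in normal, at 61.3% and 60.0%. For Maf they ran the other way in normal, at 60.0% with and 62.2% without. Il23r was seen in 6.54% and 6.90% of the pooled cells, a near equality that hides 8.11% with and 1.22% without in continuous and 2.44% with and 12.0% without in irradiated, from 1 to 9 cells each. Cd163l1 is also on the marker list of gamma-delta T cells, but the gate itself used only receptor genes.

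The receptor gene Il23r had its highest mean level in gamma-delta T cells. Its level there was 57.8 CPM in continuous, 67.0 in chronic, 79.3 in acute, 83.7 in irradiated and 77.7 in normal, from 17 to 64 UMIs per library. Pretreatment had 114 CPM from 13 UMIs. In CD4 T cells it was 23.6 in continuous, 22.7 in chronic, 46.1 in acute, 39.1 in irradiated and 10.1 in normal. The ranges of the 2 cell types did not overlap across the 5 libraries with at least 20 cells, while T cells without a receptor UMI reached 60.5.

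No difference in Il23r between libraries was detectable in gamma-delta T cells at this depth. The ratio of irradiated over normal was 1.08 (0.603 to 1.91). Relative to irradiated it was 1.36 in pretreatment (0.638 to 2.79), 0.691 in continuous (0.417 to 1.18), 0.801 in chronic (0.494 to 1.34) and 0.948 in acute (0.478 to 1.84). Each interval spans 1, and each is wide enough to hold changes in both directions.

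Genes that accompany the type 17 state were also counted past 2-fold in gamma-delta T cells. With 24 to 29 of them tested, the counts are too small to set apart from the shares of all genes. The list holds lineage factors, receptors and products of type 17 cells. Cd163l1, Sox13 and Blk in it are also on the marker list of gamma-delta T cells, but the gate did not use them. None of 24 tested were past 2-fold in irradiated over normal, beside 4.10% of all genes higher and 3.91% lower, and the median log2 ratio was 0.23 beside -0.03 for all genes. In continuous over irradiated 4 of 29 were higher and 1 lower, beside 9.44% of all genes higher and 11.3% lower. In chronic over irradiated 1 of 27 was higher and 1 lower, and in acute over irradiated 1 of 24 was higher and 2 lower. Beside the chronic count, 5.42% of all genes were higher and 7.20% lower, and beside the acute count 3.23% were higher and 3.65% lower. The list's median log2 ratio was 0.12 in continuous, -0.01 in chronic and -0.01 in acute, beside -0.11, -0.10 and 0.02 for all genes.

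Il22, which encodes a cytokine that acts on epithelium, had the lowest ratio among the type 17 genes with at least 100 UMIs in chronic and in acute. It was 80.6 CPM in chronic gamma-delta T cells, against 498 in irradiated, a ratio of 0.162 (0.121 to 0.215). In acute it was 126, a ratio of 0.253 (0.161 to 0.383). With thinned cells, Il22 was seen in 3 of 82 irradiated gamma-delta T cells with Il17a and 1 of 50 without. The counts were 7 of 203 and 4 of 158 in chronic, and 2 of 58 and 1 of 26 in acute. These shares did not set irradiated apart from chronic and acute as the levels did. The intervals are too narrow if a few irradiated cells hold many of the Il22 UMIs, which was not tested. In CD4 T cells Il22 was 815 in continuous, against 141 in irradiated, a ratio of 5.78 (3.64 to 9.81). Maf was lower in continuous than in irradiated gamma-delta T cells, at 1103 against 2179 CPM, a ratio of 0.506 (0.457 to 0.561).

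The p19 gene Il23a had its highest mean level across libraries in neutrophils, at 263 CPM with a range of 23.0 to 469 that overlapped those of both dendritic cell types. Neutrophils held 2.56% to 84.1% of its UMIs in kept cells, with a median of 56.5%. In continuous the level was higher in type 2 conventional dendritic cells, at 45.8 CPM, than in neutrophils. Its level in neutrophils was 34.9 CPM in continuous, 446 in chronic, 266 in acute, 338 in irradiated and 469 in normal. In pretreatment 20 neutrophils held 2 UMIs. Continuous was far below the other 4 libraries, which lay within 2-fold of each other.

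The share of neutrophils with an Il23a UMI showed the same order at its low end. It was 4.60% in continuous, 25.7% in chronic, 16.3% in acute, 22.1% in irradiated and 24.9% in normal. Thinned to 1000 UMIs it was 2.76% in continuous, 20.7% in chronic, 14.7% in acute, 19.8% in irradiated and 22.4% in normal. In fibroblasts, not known for p19, the unthinned share was 1.09% in continuous and up to 5.59% in irradiated. Median depth was 8599 UMIs per fibroblast in continuous and 4616.5 in irradiated, against 2641.5 and 1136.5 per neutrophil.

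Il23a in neutrophils was 0.721 times as high in irradiated as in normal (0.687 to 0.756). Over irradiated the ratio was 0.103 in continuous (0.0916 to 0.116), 1.32 in chronic (1.25 to 1.39) and 0.787 in acute (0.740 to 0.836). In continuous over irradiated, 35.0% of all genes tested in neutrophils were lower by 2-fold or more and 2.65% higher, and the median log2 ratio of all genes was -0.62. In irradiated over normal 3.23% were higher and 5.02% lower, in chronic over irradiated 3.61% and 13.5%, and in acute over irradiated 3.35% and 0.951%.

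Among neutrophils thinned to 1000 UMIs, Il23a was compared between cells with and without a UMI of the inflammatory genes Ccl3, Ccl4 and Il1a, a split chosen after other values were seen. In chronic it was seen in 22.2% of 1863 neutrophils with a UMI of these genes and 5.56% of 180 without. In continuous it was seen in 2.86% of 2974 with and 0.709% of 141 without. Neutrophils without them numbered 28 in acute, 27 in irradiated and 39 in normal, which is too few to describe a share. A split by the granule genes Ngp, Ltf, Camp and Lcn2 gave 20.0% with and 23.7% without in chronic, 2.61% with and 3.68% without in continuous, and 19.6% with and 20.7% without in irradiated. It gave the opposite order in acute, at 15.06% with and 12.98% without, and in normal, at 22.6% with and 21.2% without.

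**Figure D3:**
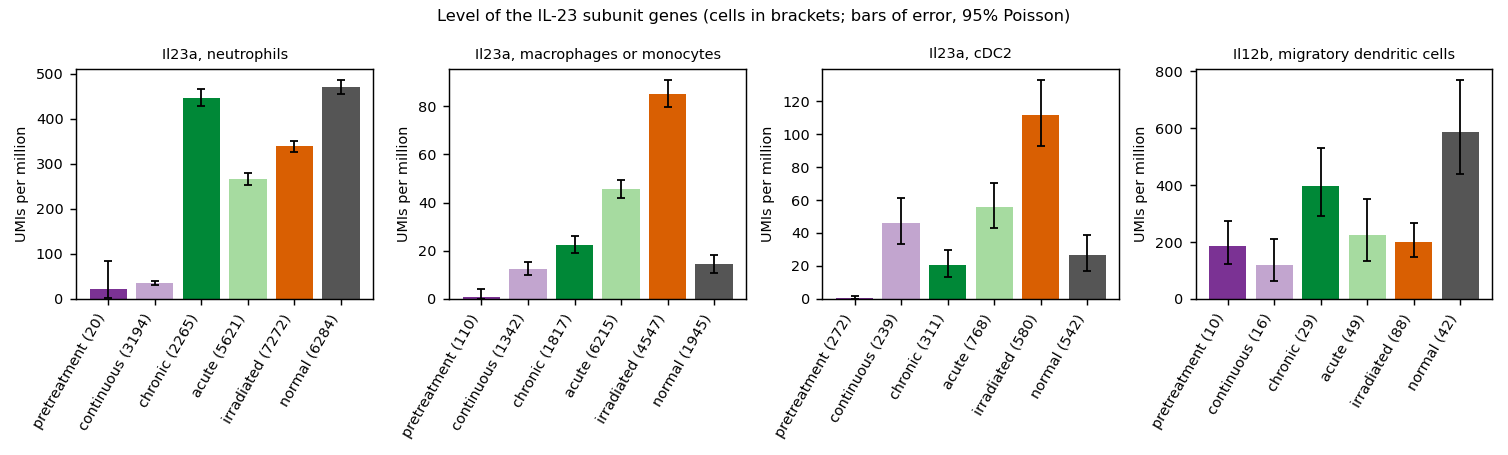
Level of Il23a in neutrophils, macrophages or monocytes and type 2 conventional dendritic cells, and of Il12b in migratory dendritic cells (CPM), with the number of cells in brackets; error bars are 95% Poisson intervals. Neutrophil Il23a is 34.9 in continuous and 266 to 469 in chronic, acute, irradiated and normal, while macrophage Il23a peaks at 85.1 in irradiated.

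Macrophages or monocytes gave another order. Il23a there was 0.775 CPM in pretreatment, 12.4 in continuous, 22.4 in chronic, 45.4 in acute, 85.1 in irradiated and 14.3 in normal. The ratio of irradiated over normal was 5.94 (4.58 to 7.85), where 3.44% of all genes tested were higher by 2-fold or more. Against irradiated it was 0.146 in continuous (0.115 to 0.183), 0.263 in chronic (0.223 to 0.310) and 0.534 in acute (0.479 to 0.594). Pretreatment held 1 UMI in 110 cells, a ratio of 0.00911 (0.00023 to 0.0509). Of all genes tested in macrophages, 2.62% were lower in irradiated over normal. Against irradiated, 16.2% were higher and 14.7% lower in pretreatment, 6.66% and 9.60% in continuous, 2.40% and 4.97% in chronic, and 1.67% and 0.822% in acute.

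Neutrophil markers were also counted in the macrophage gate. Il23a in macrophages stood at 25.2% of the neutrophil level in irradiated and 3.05% in normal, where the 12 neutrophil markers stood at 3.16% and 3.51%. In continuous the values were 35.5% for Il23a and 0.993% for the markers, and in acute 17.1% and 3.69%. In normal the gene stood no higher than the markers.

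Type 2 conventional dendritic cells, which present antigen to CD4 T cells, followed the macrophage order at its top. Il23a was 0.667 CPM in pretreatment, 45.8 in continuous, 20.4 in chronic, 55.6 in acute, 112 in irradiated and 26.4 in normal. The ratio of irradiated over normal was 4.23 (2.76 to 6.72). Relative to irradiated it was 0.411 in continuous (0.286 to 0.581), 0.183 in chronic (0.117 to 0.277) and 0.498 in acute (0.365 to 0.675). Neutrophil markers stood there at 0.187% to 3.35% of their neutrophil level, and their part in Il23a was not tested. Of all genes tested in these cells, 3.42% were higher and 2.38% lower in irradiated over normal. Against irradiated, 16.2% were higher and 15.7% lower in pretreatment, 4.66% and 8.55% in continuous, 4.54% and 5.74% in chronic, and 1.74% and 2.06% in acute.

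The p40 gene Il12b had its highest level in migratory dendritic cells, which carry antigen to lymph nodes. They held 24.7% to 92.9% of its UMIs in kept cells, with a median of 41.2%. Cells that passed no gate held 0 to 56.1%, with a median of 35.5%, and type 2 conventional dendritic cells held 0 to 41.4%. They numbered 10 in pretreatment, 16 in continuous, 29 in chronic, 49 in acute, 88 in irradiated and 42 in normal. Il12b there was 187 CPM in pretreatment, 120.1 in continuous, 398 in chronic, 224 in acute, 201 in irradiated and 586 in normal. Among libraries with at least 20 of these cells its range did not overlap that of type 2 conventional dendritic cells, at 0 to 29.9. Each library held only 12 to 52 UMIs of Il12b in this gate, and 1 cell held 76.9% of them in pretreatment and 52.6% in acute.

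The ratio of Il12b in migratory dendritic cells was 0.344 in irradiated over normal (0.227 to 0.520). Over irradiated the ratio was 0.932 in pretreatment (0.554 to 1.54), 0.597 in continuous (0.288 to 1.14), 1.98 in chronic (1.29 to 3.03) and 1.11 in acute (0.617 to 1.93). With thinned cells the log2 ratio for chronic over irradiated was 0.34, against 0.98 with all UMIs. Il12b had no UMI in T cells of any library.

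Few cells held a UMI of both subunit genes of interleukin-23, and outside migratory dendritic cells few held Il12b at all. Of 234 migratory dendritic cells, 14 held Il23a, 53 held Il12b and 5 held both. Of 24656 neutrophils, 4825 held Il23a, 6 held Il12b and 2 held both. Of 15976 macrophages or monocytes, 927 held Il23a, 10 held Il12b and none held both. Of 2712 type 2 conventional dendritic cells, 151 held Il23a, 15 held Il12b and 3 held both. Pooled over libraries, Il12b was seen in 35.7% of migratory dendritic cells with Il23a and 21.8% without. In type 2 conventional dendritic cells the shares were 1.99% and 0.469%, and in macrophages or monocytes 0 and 0.0664%. These counts are too few to show whether the genes keep apart. A missing UMI at these depths does not show that a cell lacked the transcript.

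Other genes of these dimers were measured as well. Ebi3, a p40-like subunit of interleukin-27, was also highest in migratory dendritic cells, at 82.6 to 113 CPM. Il12rb1, the receptor chain shared by interleukin-12 and interleukin-23, was about as high in gamma-delta T cells, at 23.3 to 62.1, as in regulatory T cells, at 26.9 to 47.7. Il12rb2, the chain specific to interleukin-12, had its highest mean in natural killer cells, at 105 to 157, a range that overlapped the 32.4 to 123 of CD8 T cells.

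The receptor gene Il17ra was found in most leukocytes and in fibroblasts. In macrophages or monocytes it was 69.0 CPM in pretreatment, 97.3 in continuous, 113 in chronic, 160.1 in acute, 161 in irradiated and 106 in normal. The ratio of irradiated over normal was 1.53 (1.38 to 1.70). Against irradiated it was 0.427 in pretreatment (0.341 to 0.529), 0.603 in continuous (0.550 to 0.660), 0.700 in chronic (0.644 to 0.759) and 0.991 in acute (0.929 to 1.06).

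In fibroblasts Il17ra was 95.3 CPM in pretreatment, 88.2 in continuous, 66.6 in chronic, 74.5 in acute, 83.1 in irradiated and 76.9 in normal. No library pair compared was past 2-fold. In neutrophils it was 93.4 to 128, again with no pair past 2-fold. In keratinocytes it was lower, at 9.45 in pretreatment, 22.4 in continuous, 23.2 in chronic, 43.4 in acute, 49.2 in irradiated and 40.1 in normal. There pretreatment stood at 0.192 of irradiated (0.091 to 0.369), continuous at 0.456 (0.308 to 0.672) and chronic at 0.471 (0.309 to 0.711).

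The UMIs of the receptor gene Il17rc lay mainly in fibroblasts and keratinocytes. Fibroblasts held a median of 51.2% of its UMIs in kept cells and keratinocytes 24.6%. In keratinocytes it was 101 CPM in pretreatment, 53.3 in continuous, 39.7 in chronic, 36.3 in acute, 33.4 in irradiated and 57.0 in normal, and 1 cell held 31.6% of the UMIs in pretreatment. In fibroblasts it was 18.4 to 24.3, with a mean of 21.5 across libraries. Mean levels were close to that in pericytes or smooth muscle cells, at 22.0, and in lymphatic and vascular endothelial cells, at 20.4 and 16.2. Il17rc was at most 1.87 in neutrophils and 1.53 in macrophages or monocytes.

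Il17rc in keratinocytes was 0.585 times as high in irradiated as in normal (0.365 to 0.941). Relative to irradiated it was 3.01 in pretreatment (2.09 to 4.43), 1.60 in continuous (1.11 to 2.34), 1.19 in chronic (0.798 to 1.80) and 1.09 in acute (0.687 to 1.73). In fibroblasts all 5 ratios had intervals that include 1. Pretreatment keratinocytes thus had the lowest Il17ra and the highest Il17rc, over 70 cells.

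**Figure D4:**
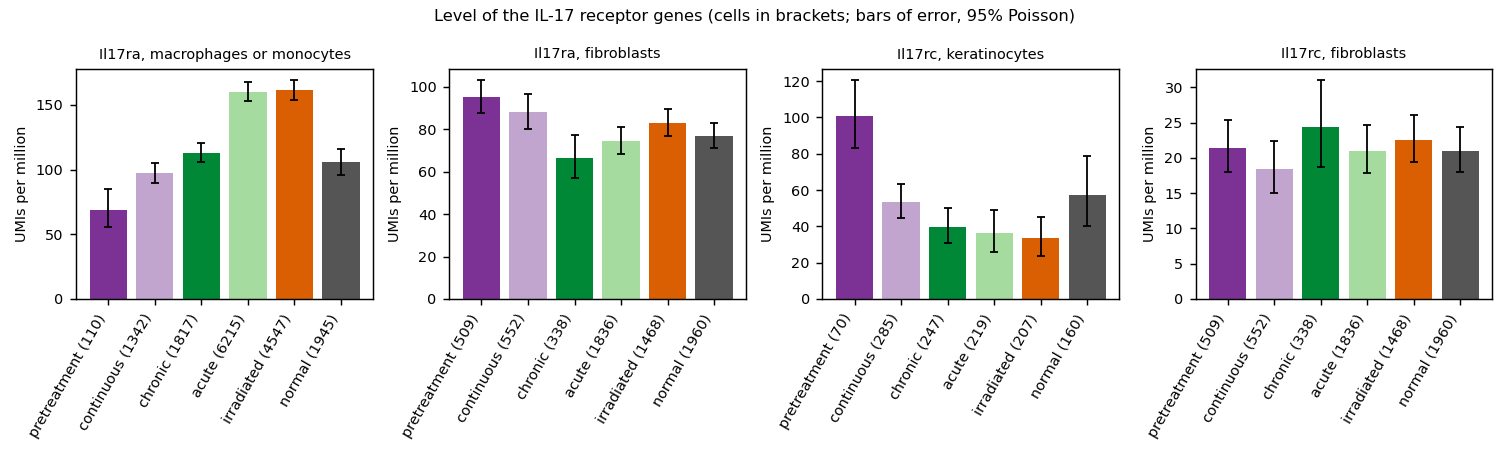
Level of Il17ra in macrophages or monocytes and fibroblasts and of Il17rc in keratinocytes and fibroblasts (CPM), with the number of cells in brackets; error bars are 95% Poisson intervals. Fibroblast Il17rc stays between 18.4 and 24.3 in all 6 libraries, while keratinocyte Il17rc is 101 in pretreatment and 33.4 to 57.0 elsewhere.

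Genes that interleukin-17 is known to induce in skin and stroma were counted from a list of 36, of which 34 matched the tables. In fibroblasts 28 were tested. In irradiated over normal 6 were higher by 2-fold or more and none lower, where 2.35% of all genes tested were higher and 2.89% lower. The list's median log2 ratio was 0.60, beside -0.03 for all genes. Without the 50 most abundant genes in the totals, 3 were higher. The 6 were Csf2, Lif, Csf3, Krt17, Ptgs2 and Ccl20. Csf2, which encodes the growth factor GM-CSF, was 51.5 CPM in irradiated, against 10.7 in normal, a ratio of 4.80 (3.82 to 6.09). Csf3, which encodes the neutrophil growth factor G-CSF, was 211 against 90.9, a ratio of 2.32 (2.13 to 2.53).

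Against irradiated, fibroblasts of the pretreatment, continuous and chronic libraries had more of these genes lower than higher. In pretreatment 27 of 28 were lower and none higher, beside 14.6% of all genes tested lower and 10.0% higher. In continuous 10 were lower and 2 higher, beside 8.73% lower and 3.96% higher. In chronic 15 were lower and none higher, beside 6.13% lower and 4.27% higher. In acute 1 was lower and none higher, beside 0.780% lower and 1.73% higher, which is too few to set apart from all genes. With thinned cells 1 was higher in acute. The list's median log2 ratio was -4.76 in pretreatment (-4.20 with genes at 0 set to 3 UMIs), -0.80 in continuous, -1.02 in chronic and -0.36 in acute, beside -0.07 to 0.05 for all genes. These 4 counts share the irradiated library.

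Single genes in fibroblasts show how the libraries differed. Cxcl5, which encodes a neutrophil-attracting chemokine, was 5.16 CPM in pretreatment, against 2264 in irradiated, a ratio of 0.00228 (0.00157 to 0.0032). Nos2, which encodes inducible nitric oxide synthase, was 5.83 in continuous, against 211 in irradiated, a ratio of 0.0277 (0.0187 to 0.0394). Mmp13, which encodes a collagenase, was higher in continuous, at 232 against 107, a ratio of 2.16 (1.97 to 2.35). Csf2 was 3.74 in chronic, a ratio of 0.0726 to irradiated (0.0346 to 0.135). Saa1, which encodes an acute-phase protein, was 61.6 in acute, against 180 in irradiated, a ratio of 0.343 (0.308 to 0.382).

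In keratinocytes 8 of 27 tested were higher and 3 lower in irradiated over normal, beside 5.38% of all genes higher and 3.72% lower. Ccl20, which encodes the ligand of CCR6 on type 17 cells, was 213 CPM in irradiated, against 16.9 in normal, a ratio of 12.5 (6.89 to 25.4). Sprr2d, which encodes a cornified envelope protein, was 42.5 in irradiated, against 416 in normal, a ratio of 0.102 (0.0742 to 0.138). With predicted doublets kept, 3 genes in place of 8 were higher, and with thinned cells 4.

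Against irradiated, 26 of 27 of these genes were lower in pretreatment keratinocytes and none higher, beside 23.1% of all genes lower and 13.8% higher. With thinned cells 14 were lower. In continuous 16 of 29 were lower and 2 higher, beside 11.2% lower and 9.28% higher. In chronic 12 of 29 were lower and 4 higher, beside 7.85% lower and 3.47% higher. In acute 8 of 28 were higher and 1 lower, beside 2.53% higher and 3.85% lower, so acute was the patch library with more of the list higher than lower. With thinned cells 4 were higher. The list's median log2 ratio was -4.53 in pretreatment (-3.92 with genes at 0 set to 3 UMIs), -1.37 in continuous, -0.66 in chronic and 0.21 in acute, beside -0.22 to -0.04 for all genes.

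Ccl20 in keratinocytes was lower than in irradiated in the continuous, chronic and acute libraries, at 11.0, 40.8 and 31.0 CPM. Sprr2d was higher in each of them, at 113 in continuous, 235 in chronic and 395 in acute. In acute, Il19, which encodes a cytokine of the interleukin-10 family, was 181, against 50.03 in irradiated, a ratio of 3.61 (2.70 to 4.90). Mmp9 was 116 in acute, against 21.7 in irradiated, a ratio of 5.35 (3.49 to 8.50).

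Mmp9, Lcn2, S100a8 and S100a9 are also genes of neutrophils. The 12 neutrophil markers summed in keratinocytes to 0.104% of their neutrophil level in pretreatment, 1.73% in continuous, 7.22% in chronic, 9.87% in acute, 4.97% in irradiated and 8.61% in normal. In fibroblasts they stood at 0.225% to 1.44%. Their part in the counts above was not tested.

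The same list was also past 2-fold in cells other than those of skin and stroma, so these counts are not particular to fibroblasts or keratinocytes. In gamma-delta T cells 6 of 15 tested were higher and 2 lower in irradiated over normal, beside 4.10% and 3.91% of all genes. Against irradiated, none were higher and 9 of 14 were lower in continuous gamma-delta T cells, beside 9.44% and 11.3%, and none were higher and 10 of 14 lower in chronic, beside 5.42% and 7.20%. In acute 1 of 14 was higher and 2 lower, beside 3.23% and 3.65%. In pretreatment 26 of 28 were lower in macrophages or monocytes, beside 14.7% of all genes, and 22 of 22 in type 2 conventional dendritic cells, beside 15.7%, with none higher in either.

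**Figure D5:**
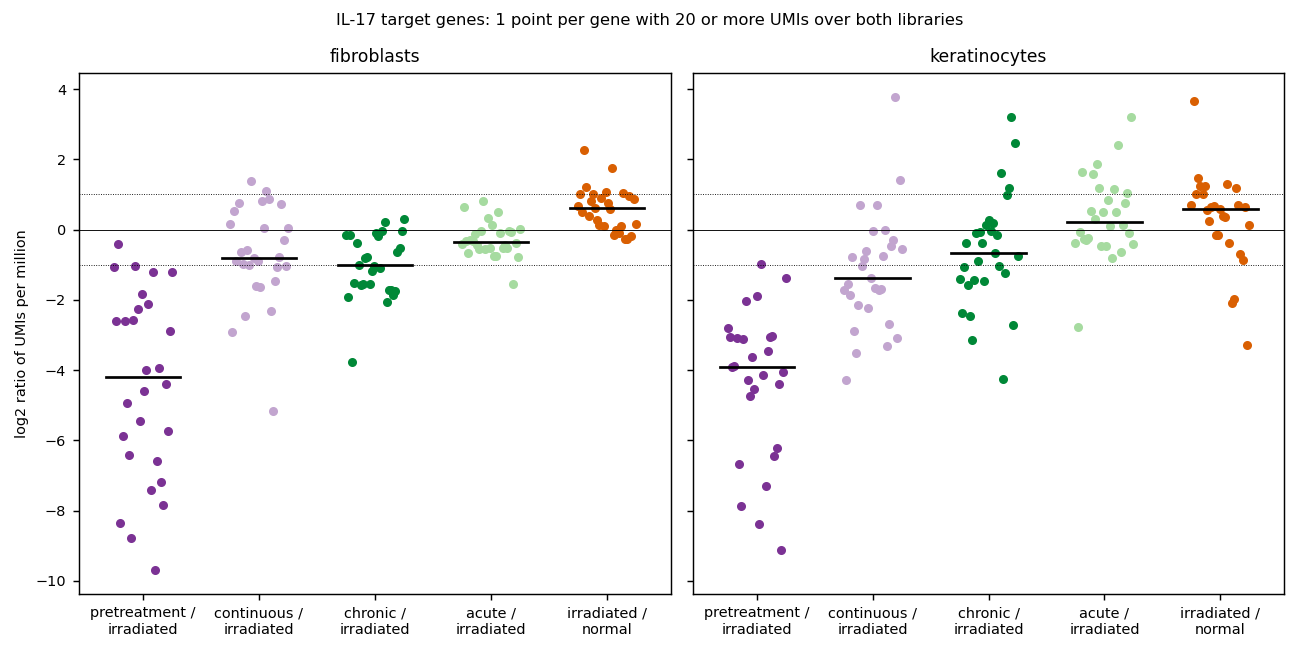
Genes that interleukin-17 is known to induce, shown for fibroblasts and keratinocytes as log2 ratios between libraries, 1 point per gene tested, with genes at 0 set to 3 UMIs, bars at medians and dotted lines at 2-fold. The points of pretreatment over irradiated lie furthest below 0, with 27 of 28 genes in fibroblasts and 26 of 27 in keratinocytes lower by 2-fold or more.

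Signal transducers of the interleukin-17 receptor were counted in the same cells, beside the same shares of all genes. Of 25 tested in fibroblasts, irradiated over normal had none lower and 1 higher, Tnfaip3, which encodes the inhibitor A20, at 409 CPM in irradiated, against 171 in normal. Against irradiated, pretreatment had 1 higher and 4 lower, beside 10.0% and 14.6% of all genes. Continuous had 1 higher and 2 lower, beside 3.96% and 8.73%, and chronic had none higher and 1 lower, beside 4.27% and 6.13%. Acute over irradiated had none past 2-fold in fibroblasts, beside 1.73% of all genes higher and 0.780% lower. In keratinocytes 1 of 23 was higher and 1 lower in irradiated over normal, beside 5.38% and 3.72%. Against irradiated none were higher there, and the number lower was 14 of 24 in pretreatment, 6 of 25 in continuous, 6 of 24 in chronic and 0 of 23 in acute, beside 23.1%, 11.2%, 7.85% and 3.85% of all genes.

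Across 20 gated cell types, the genes most like each member in level were found by Pearson's correlation of log2(CPM + 1) over 7782 genes, as a description. Il17a was most like Actn2 (r = 0.895), Cd3g and Il17f (r = 0.877). Il17f was most like Olfr60 (r = 0.925), Il23r also like Olfr60 (r = 0.882), and Il12b like Bcl2l14 (r = 0.944) and Ccl22. Il23a was most like Olr1 (r = 0.882), Il17ra like Arhgdib (r = 0.848) and Il17rc like Mical2 (r = 0.906). The points share libraries and depth, and cell types are not replicates.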

How the data were processed

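Single-cell RNA libraries were made with droplet 3' chemistry, per the labels' protocols. The deposited tables hold raw counts (UMIs per gene and barcode) that the authors made with Cell Ranger 6.0.0, per the file headers. The submitters' processing notes name Cell Ranger, Seurat 5.0.1 and Sscrofa11.1, while the identifiers are mouse.

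Barcodes were used if they held 500 UMIs or more from 300 genes or more, with no more than 20% of UMIs mitochondrial. Predicted doublets, the barcodes that score highest for genes seldom held together, were removed at 0.8% per 1000 barcodes up to 10%. That removed 1.47% to 10.0% of barcodes. Its integer score was written for this purpose after a first caller gave results that changed with the number of threads. Cells were gated with at least 3 markers of a type and a score 1.25 times that of the next. T cells were then divided without a score. A UMI of Trdc, or 2 of the gamma chain genes, made a gamma-delta T cell. Of the others with a UMI of Trac, Trbc1 or Trbc2, those with Foxp3 were called regulatory. Without Foxp3, cells with Cd4 but no Cd8a or Cd8b1 were CD4 T cells, and the reverse CD8 T cells. These divisions can rest on a lone UMI. Counts were summed per gate and library. Intervals are exact Poisson for levels, exact conditional for ratios and Clopper-Pearson for shares. The ratio step was tested on simulated Poisson counts. Those do not show how it fares where a few cells hold many of the UMIs. Ratios need 20 UMIs over both libraries, and lists need 50 cells in both. A gene is counted when it is past 2-fold.

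The members, gene lists and markers were chosen with earlier results of these data known. Genes beyond the 7 were named when among the 3 highest or 3 lowest ratios of their list, with 100 UMIs in the higher library and intervals apart, or among the 5 most alike in level. Genes named outside that rule, such as those of short counts, those compared between cells with and without Il17a, and one gene followed across libraries, were chosen after their values were seen. The comparison with 3 CD3 genes and the splits of neutrophils were also chosen after values were seen. The alternatives were 1000 UMIs per cell, 10% mitochondrial UMIs, doublets kept, 1 more marker per gate, cells thinned to 1000 UMIs, and totals without the 50 most abundant genes. Python 3.11.15, numpy 2.4.6, scipy 1.17.1, pandas 2.3.3 and matplotlib 3.10.9 were used. One gene of the type 17 list is not reported here by name.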

Additional observations from a re-analysis of the deposited data

How the results depend on the processing

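No paired analysis was possible because each label has 1 library. No ratio past 2-fold changed direction under any alternative; each log2 ratio that changed sign had an interval that spans 0. Of the 35 main log2 ratios, 34 kept their sign without the 50 most abundant genes, 33 with 1000 UMIs per cell, 33 with 10% mitochondrial UMIs and 35 with doublets kept. With 1 more marker per gate 34 of 34 kept it, and with thinned cells 22 of 25. No value moved beyond its interval with 10% mitochondrial UMIs.

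With 1 more marker per gate, the log2 ratio of Il17a in gamma-delta T cells was 0.68 for irradiated over normal and -1.17 for acute over irradiated. For Il17f it was -1.61 for pretreatment, 0.25 for continuous and -1.88 for acute, each over irradiated. Type 17 genes past 2-fold were 1 higher and 1 lower in irradiated over normal, 3 higher in chronic and 4 lower in acute. Without the 50 most abundant genes, Il23a in neutrophils was -3.04 for continuous and -0.45 for acute, and 3 target genes in fibroblasts were higher in irradiated over normal. With 1000 UMIs per cell, Il23a was -0.33 for irradiated over normal and -0.57 for acute, and type 17 genes were 1 higher in irradiated over normal, 2 lower in chronic and 0 higher in acute.

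With thinned cells, Il17a in gamma-delta T cells was -0.30 for chronic and -0.20 for acute. Il17f was 0.41 for irradiated over normal, -1.39 for chronic and -0.79 for acute. Il23a in neutrophils was -0.38 for irradiated over normal, -3.00 for continuous, 0.54 for chronic and -0.60 for acute. Il12b was -2.13 for continuous and 0.34 for chronic, and Il17ra in macrophages -0.40 for chronic. Target genes in fibroblasts were 1 higher in continuous and 1 higher in acute. In keratinocytes 4 were higher in irradiated over normal, 14 lower in pretreatment, 1 higher in continuous, 2 higher and 7 lower in chronic, and 4 higher and 0 lower in acute. Type 17 genes were 0 higher and 2 lower in chronic, and 0 higher and 1 lower in acute. With doublets kept, Il23a was -3.07 for continuous, target genes were 1 higher in fibroblasts of continuous, 3 higher in keratinocytes of irradiated over normal and 2 higher in chronic, and 2 type 17 genes were lower in continuous. Thinning leaves fewer UMIs, so fewer genes are tested; the other causes were not tested. Counts under about 50 UMIs, as for Il12b and Il23r, leave wide intervals.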

Other observations

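Other members of the interleukin-17 family differed in level. Il17re had its highest mean in T cells without a receptor UMI, at 11.4 to 61.5 CPM, and was 23.3 to 47.4 in gamma-delta T cells. Il17b was 0 to 65.4 in Schwann cells over 4 libraries. The ligand genes Il17c, Il25 and Il17d were thinly counted. Il17c was at most 0.16 CPM in fibroblasts, the gate with its highest mean. Il25 was at most 0.86 in keratinocytes. Il17d was 2.24 to 4.22 in fibroblasts. Il17rb, the receptor chain for interleukin-25, was highest in type 2 innate lymphoid cells, at 0 to 78.9 over 3 libraries. Il17rd was 7.46 to 21.9 in vascular endothelial cells.

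Predicted doublets held a share of Il17a UMIs that differed between libraries. It was 0 in pretreatment, 3.56% in continuous, 9.11% in chronic, 10.8% in acute, 19.8% in irradiated and 19.5% in normal. For Il12b it was 33.6% in acute and 18.6% in irradiated. For Il17ra it was 21.0% in acute, 21.5% in irradiated and 22.5% in normal. The share of barcodes removed was set by the rule and differed too. It was 1.47% in pretreatment, 7.88% in continuous, 7.78% in chronic and 10.0% in acute, irradiated and normal.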
